A study of Chromochloris zofingiensis with 18 samples.

Results

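LHC11 (Cz14g01080) and LHCSR (Cz16g02040) are 2 of the 18 light-harvesting antenna genes followed in the green microalga Chromochloris zofingiensis under sulfur starvation (SS) and sulfur replenishment (SR), and 2 of the 15220 genes with a value in at least 1 sample. They were chosen because their transcripts depart from those of the other 16: LHC11 was high in early SS, and LHCSR was low at SR. The choice therefore used the levels of LHC11 at 0 h, SS-6 h and SS-12 h, and those of LHCSR before SS, after 48 h of SS and after SR. Comparisons among these levels are given below as values without a test.

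The transcriptome was read in 18 samples, 3 biological replicates in each of 6 conditions. All cultures were of strain ATCC30412, grown phototrophically in columns under continuous light with CO2-enriched air. The conditions were sulfur-replete culture before starvation (0 h), 6, 12, 24 and 48 h in medium whose magnesium sulfate was replaced by magnesium chloride (SS-6 h through SS-48 h), and SR for 12 h following 48 h of SS (SR-12 h). The sources differ on whether sulfate was added to the starved culture or the cells were moved to fresh medium for SR, so a change of medium and the return of sulfur cannot be told apart there. For SS the cells were also resuspended in new medium, and none of the later conditions has a sulfur-replete sample of the same time. Loss of sulfur, the transfer and time in culture therefore cannot be told apart in the changes from 0 h. The values are FPKM, which scale the reads of a gene by transcript length and by the mapped reads of the sample, so levels of different genes are compared per length. They are relative abundances: fewer transcripts of a gene and more RNA of other genes cannot be told apart.

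Light-harvesting complex (LHC) proteins sit in the thylakoid membrane, bind chlorophyll and carotenoids, and pass excitation energy to photosystem I (PSI) or photosystem II (PSII). Most members harvest light, whereas LHCSR, the stress-related member, is known from Chlamydomonas for dissipating excess excitation as heat. LHC11 carries the same KEGG annotation as LHC9, the PSI antenna protein LHCA3, and its closest database match was Tidi of Dunaliella salina, a chlorophyll a/b-binding protein that accumulates in that alga under iron deficiency and associates with PSI. For LHCSR, the KEGG entries name light-harvesting proteins of both photosystems, so its name rests on the abbreviation the study gave it.

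All samples but SS-6 h replicate 1 were close in depth. The depth of a sample relative to 0 h replicate 2, estimated from the step sizes of low FPKM, was 0.77 to 1.03, with SS-6 h replicate 1 the shallowest, and a sample listed 14351 to 14867 genes. Without that sample the log2 fold change at SS-6 h against 0 h was 5.56 for LHC11 and -1.59 for LHCSR, close to the values below. The comparisons against 0 h share the same 3 control samples and are not independent of each other.

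LHC11 was the least abundant of the 18 antenna transcripts in sulfur-replete cells. Within 12 h of SS it reached the level of PSI antenna transcripts, which had themselves fallen by then. The lowest 0 h mean of the other 16 genes, 1126 FPKM, was above every LHC11 value. At 0 h the FPKM of LHC11 was 3.05, 3.70 and 4.64 in the 3 replicates. The SS-6 h replicates had 232, 240 and 209 FPKM. At SS-12 h the values were 802, 893 and 722. The replicates of these conditions lie far apart from each other and do not overlap. Since the choice of LHC11 used these levels, the lack of overlap and the ranks that follow are a description and not evidence. The mean at SS-6 h was 59.8 times and at SS-12 h 212 times the 0 h mean, which moved LHC11 from position 12895 to 183 in the ranking of all genes by mean FPKM. On the log2(FPKM + 1) scale, on which a fold change understates the change of low genes, the differences from 0 h were 5.58 (SE 0.14) and 7.40 (SE 0.14), and the latter was the second highest of all 15220 genes. In the antenna family LHC11 then ranked 13 of 18 by mean FPKM, above 4 of the other genes.

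As a description, the SS-12 h level of LHC11 exceeded that of SS-6 h by 1.82 (SE 0.14) on the log2(FPKM + 1) scale. The later time course was tested except against SS-12 h, although the comparisons with 0 h share those samples with the choice. LHC11 fell steeply, to 18.4, 18.6 and 13.6 FPKM at SS-24 h. The SS-12 h mean was 47.8 times the SS-24 h mean. The log2 fold change was -5.50 (SE 0.14), the second largest fall among all genes in that comparison. It is given as a description without a test, since the choice of LHC11 used its SS-12 h level. At SS-24 h LHC11 was still higher than at 0 h, by 1.90 (SE 0.14; limma, adjusted p = 2.8e-08).

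Calls in either direction needed an adjusted p of at most 0.05, over all genes, and a log2 change of 1 or more in size. Of all genes, 4.57% were called higher at SS-24 h against 0 h, and 8.73% lower at SS-24 h against SS-12 h.

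After SS-24 h the transcript stayed low. LHC11 FPKM was 6.35, 7.44 and 7.81 at SS-48 h, all below the SS-24 h replicates, and the fall of -1.11 (SE 0.14) from SS-24 h to SS-48 h passed the test (limma, adjusted p = 4.7e-06), where 6.59% of all genes were called lower. At SR-12 h the values were 8.33, 8.95 and 7.59, which overlap those of SS-48 h. The difference of LHC11 between SR-12 h and SS-48 h did not pass the test (0.18, 95% confidence interval -0.11 to 0.47; limma, adjusted p = 0.25). The replicates of both conditions were nevertheless all above those of 0 h. The choice of LHC11 used its 0 h level, so this order and the tests against 0 h that follow are not independent of the choice. The SS-48 h value of LHC11 against 0 h was 0.78 (limma, adjusted p = 0.00014) and the SR-12 h value 0.96 (limma, adjusted p = 2.8e-05), both under the size needed for a call. The SR-12 h value crossed that size with a pseudocount of 0.5 (1.05) or 0.1 (1.12), since at these levels the pseudocount is a large part of the value, and also without 0 h replicate 3 (1.09) or SR-12 h replicate 3 (1.02). From high to low, the order of LHC11 was SS-12 h, SS-6 h, SS-24 h, SR-12 h, SS-48 h and 0 h, and the only neighbours whose replicates overlap are SR-12 h and SS-48 h.

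LHCSR showed no such peak. The tested comparisons below share the 0 h or SS-48 h samples with its choice. LHCSR was highest in sulfur-replete cells, fell within 6 h of SS, partly recovered at SS-12 h and was low from SS-24 h on. Its FPKM was 272, 293 and 300 at 0 h, and 83.3, 106 and 84.6 at SS-6 h. The SS-6 h replicates were all below those of 0 h, with a log2 fold change of -1.65 (SE 0.15; limma, adjusted p = 7.8e-08) against a background of 21.7% of all genes called lower. At SS-12 h LHCSR was at 183, 258 and 181 FPKM. These replicates lie between those of SS-6 h and 0 h without overlap, and replicate 2 is well above the other two. The rise from SS-6 h, 1.16 (SE 0.15; limma, adjusted p = 8.5e-06), was called, as were 10.1% of all genes, but not without SS-12 h replicate 2, when it was 0.99. At SS-12 h against 0 h the difference of -0.49 (SE 0.15; limma, adjusted p = 0.0095) was too small for a call.

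From SS-24 h LHCSR did not return to its starting level. Its FPKM was 76.9, 85.9 and 85.0 at SS-24 h. The SS-48 h replicates, at 61.8, 49.0 and 73.4, were all lower. The second fall, that from SS-12 h to SS-24 h, was -1.30 (SE 0.15; limma, adjusted p = 1.9e-06). Against 0 h LHCSR was at -1.79 (SE 0.15; limma, adjusted p = 1.1e-07) at SS-24 h, where 6.89% of all genes were called lower. The SS-48 h value, as a description, was -2.23 (SE 0.15). The step from SS-24 h to SS-48 h, -0.44 (limma, adjusted p = 0.018), was under the size for a call.

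At SR-12 h LHCSR was at 80.2, 84.3 and 77.1 FPKM, 27.9% of its 0 h mean. All 3 replicates were above the SS-48 h replicates and far below those of 0 h, levels that the choice of LHCSR had used. As a description, the log2 fold change was 0.40 (SE 0.15) from SS-48 h and -1.83 (SE 0.15) from 0 h, and the SR-12 h values lie within the range of SS-24 h. In falling order LHCSR stood at 0 h, SS-12 h, SS-6 h, SS-24 h, SR-12 h and SS-48 h. SS-6 h, SS-24 h and SR-12 h overlap pairwise, and the other neighbours do not.

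**Figure D1:**
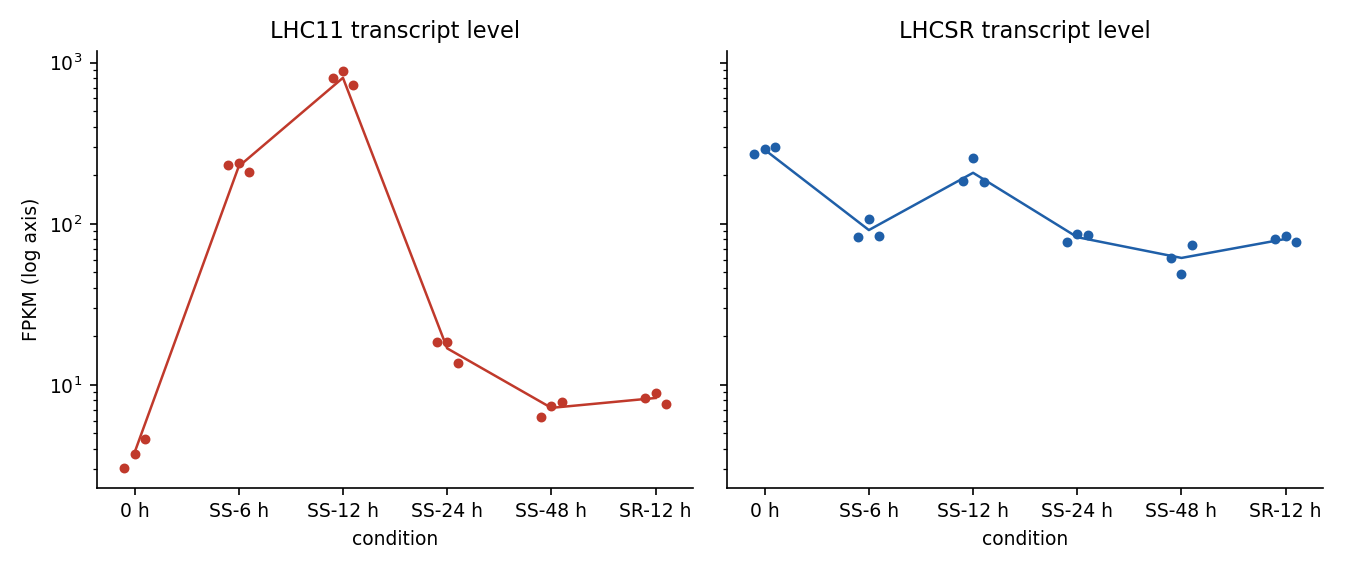
FPKM (log axis) of LHC11 and LHCSR in each of the 18 samples by condition, with points for replicates and a line through the condition means. LHC11 climbs from 3.05 to 4.64 at 0 h to 722 to 893 at SS-12 h and is back under 20 at SS-24 h, whereas LHCSR stays between 49.0 and 300 throughout.

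The other 16 antenna genes gave the reference for both. They comprise 9 genes annotated to the PSI antenna and 7 to the PSII antenna, and the study picked the list on these samples, so its direction at SS-6 h is not independent evidence. At SS-6 h against 0 h, 16 of 16 were called lower, beside 21.7% of all genes. Their median was -2.71 on the log2 scale, beside -0.17 for all genes. The fall was deepest in LHC17, a PSII antenna gene, at -5.43, and shallowest in LHC20, also of PSII, at -1.87, so the fall of LHCSR was smaller than that of each of them. LHC9, the gene with the annotation of LHC11, fell from 1847 to 291 FPKM (-2.67, SE 0.10; limma, adjusted p = 7.8e-12). From SS-6 h to SS-12 h all 16 were called higher, beside 10.1% of all genes, with a median of 1.57. LHC11 at 1.82 and LHCSR at 1.16 thus moved in the same direction as the rest of the family in that interval. LHC11 lies within the range of the 16, 1.27 to 2.13, and LHCSR just below it. Some of these genes may be similar enough to share short reads, which the authors' estimate divides between them, and how far that touches a member was not tested.

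The courses separated again after SS-12 h. Between SS-12 h and SS-24 h, when LHC11 fell by 5.50 and LHCSR by 1.30 on the log2 scale, 0 of the 16 were called lower in limma's test (range -0.87 to 1.50, 8 lower at an unadjusted p under 0.05) and 1, the PSII gene LHC16, was called higher. For comparison, 11.2% of all genes were called higher and 8.73% lower in this interval, so a count of 0 lower in 16 does not stand out. Against 0 h, 10 of the 16 were called lower at SS-12 h, beside 11.9% of all genes. At SS-24 h 16 of 16 were, beside 6.89% of all genes, or 10 with quantile normalization. By the end of SS the 16 were far lower. All were called lower at SS-48 h than at SS-24 h, beside 6.59% of all genes. The median was -4.44 and the deepest fall that of LHC19 of PSII (-6.48), whereas LHC11 fell by 1.11 and LHCSR, not called, was at -0.44. Against 0 h, 16 of 16 were called lower at SS-48 h, beside 8.04% of all genes. Their median was -6.03, and the shallowest, LHCB4, a minor PSII antenna gene, was at -3.74, a deeper fall than the -2.23 of LHCSR. After 12 h of SR, 16 of 16 were called higher than at SS-48 h, with a median of 6.51, where 8.21% of all genes were called higher. At that time 0 of the 16 differed from 0 h by a call of limma's test in either direction. Beside a background of 4.99% higher and 8.42% lower, a count of 0 in 16 does not stand out. At an unadjusted p under 0.05, 8 were higher and 1 lower. Their log2 fold changes ran from -0.45 in LHC17 to 0.75 in LHC20, while the value of LHCSR was -1.83.

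**Figure D2:**
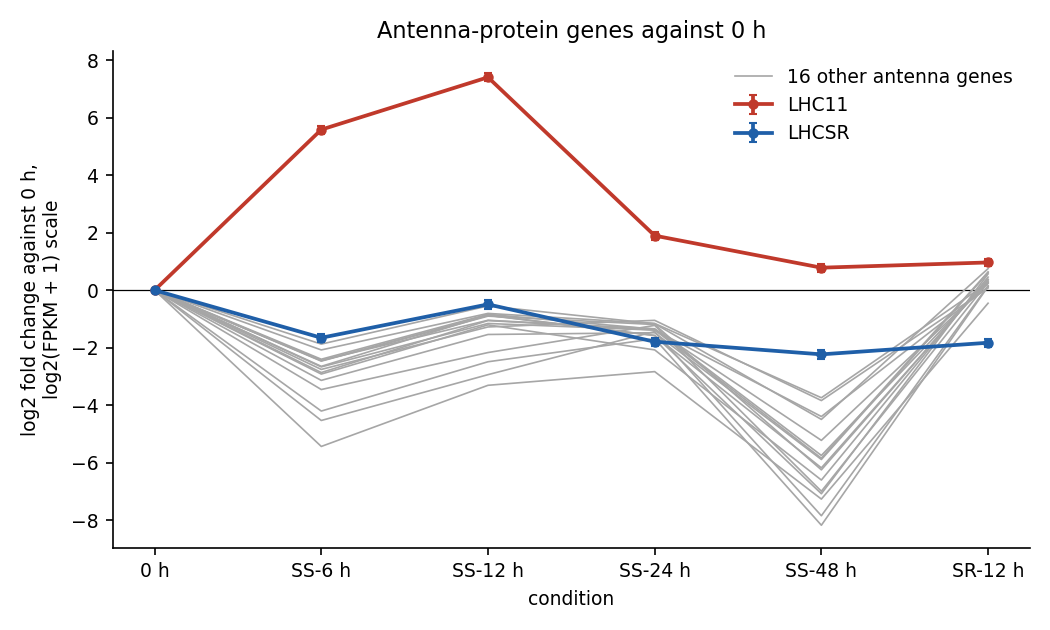
Log2 fold change against 0 h on the log2(FPKM + 1) scale by condition for LHC11, LHCSR (with limma's standard errors) and the 16 other antenna genes (grey). LHC11 alone lies above 0 during SS, with 7.40 at SS-12 h, and LHCSR lies above the grey lines at SS-48 h (-2.23) and below them at SR-12 h (-1.83).

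The place of both genes in the antenna transcript pool shifted with these courses. The summed FPKM of the 16 was 55597 ± 4454 at 0 h and 957 ± 77.3 at SS-48 h (mean ± SD, n = 3). LHCSR made up 0.53%, 0.52% and 0.50% of the summed FPKM of the 18 genes in the 0 h replicates. Its share was 5.56%, 5.15% and 7.23% at SS-48 h, although its own FPKM had fallen, and 0.13%, 0.13% and 0.12% at SR-12 h. The share was therefore highest in the condition in which the level of LHCSR was lowest. By mean FPKM LHCSR ranked 17 of 18 at 0 h and 6 of 18 at SS-48 h, above 11 of the 16 others, and 17 again at SR-12 h.

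For LHC11 the comparison with LHC9 shows the size of the change. LHC9 was 576, 507 and 412 times as abundant as LHC11 at 0 h per length. At SS-6 h the ratio of LHC11 to LHC9 was 0.83, 0.73 and 0.78, and at SS-12 h it was 0.98, 1.16 and 0.80, a range that includes 1. The ratio dropped to 0.024 ± 0.0057 at SS-24 h and was 0.083 ± 0.0081 at SS-48 h, when LHC9 itself was low, and 0.0042 ± 0.00046 at SR-12 h (mean ± SD, n = 3). LHC11 made up 8.62% ± 0.47 of the PSI antenna pool, that is LHC11 and the 9 other PSI genes, at SS-6 h and 10.3% ± 1.75 at SS-12 h, from 0.025% ± 0.0040 at 0 h.

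**Figure D3:**
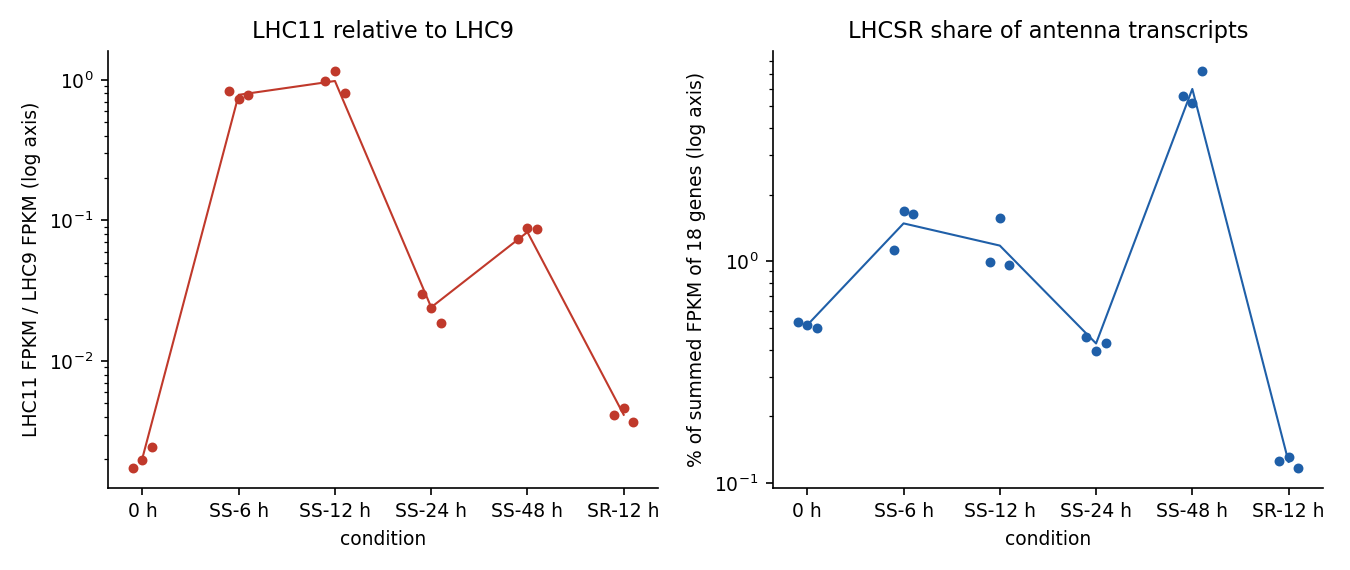
Left, ratio of LHC11 FPKM to LHC9 FPKM; right, LHCSR as a percentage of the summed FPKM of the 18 antenna genes; both on log axes, with points for replicates and lines through condition means. The LHC11 to LHC9 ratio is highest at SS-12 h, between 0.80 and 1.16, and the LHCSR share peaks at SS-48 h between 5.15% and 7.23%.

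To place each member against the family within a sample, its log2(FPKM + 1) was taken less the mean of the 16 other genes. This offset was -3.19 ± 0.020 for LHCSR at 0 h (SD, n = 3) and rose to 0.55 ± 0.29 at SS-48 h, a difference of 3.74, given without a test. Relative to 0 h it was higher by 1.37 at SS-6 h and by 0.95 at SS-12 h, and the SS-24 h difference was -0.30. At SR-12 h the offset was -5.32 ± 0.081, a difference of -2.13 that the choice of the gene had used. For LHC11 the offset was -9.12 ± 0.15 at 0 h, and it was higher by 3.39 and 6.75 after 24 and 48 h of SS and by 0.66 after SR. In each of the 6 tested differences no replicate of one condition overlapped the other. The exact two-sided permutation p was 0.1 (0.1 after adjustment over the 6), the smallest that 3 against 3 allows. A p at this floor cannot tell a small difference, such as -0.30, from a large one, such as 6.75. All 6 also share the 0 h samples with the choice of both genes, which rested on their departure from the other 16. The lack of overlap is therefore a description, and no conclusion is drawn from the test.

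Other chlorophyll-binding and photoprotective genes were read beside LHCSR. Early light-induced proteins (ELIPs) are relatives of the antenna that bind pigment during light stress. Of 5 ELIP and related genes, 4, ELIP6 among them, were called higher at SS-6 h against 0 h, beside 9.64% of all genes, and 2 at SS-12 h, beside 7.42%. ELIP4 rose from 216 ± 4.54 to 981 ± 81.6 FPKM (mean ± SD, n = 3) at SS-6 h (2.18, SE 0.34; limma, adjusted p = 4.1e-05), when LHCSR was falling. ELIP7 also rose at SS-6 h (1.78; limma, adjusted p = 0.00039) and was below its 0 h level after SR (-1.32; limma, adjusted p = 0.0062). ELIP6 is part of every ELIP count of higher genes given here, and the study picked it on these samples. Its calls in those counts are therefore not independent evidence, and its changes are given as values only. ELIP6 was above 0 h by 3.29 at SS-12 h, at only 11.9 to 15.5 FPKM, and by 2.71 after SR. After SR 1 of the 5, ELIP6, was called higher than at 0 h and 1, ELIP7, lower, beside 4.99% and 8.42% of all genes. Of 9 xanthophyll and carotenoid ring genes, 4 were called lower at SS-6 h and 0 higher in limma's test (7 and 1 at an unadjusted p under 0.05). Of all genes 21.7% were called lower and 9.64% higher there. The 4 include zeaxanthin epoxidase (ZEP, -2.20; limma, adjusted p = 3.9e-09) and violaxanthin de-epoxidase (VDE, -1.39; limma, adjusted p = 1.4e-10), which run the xanthophyll cycle in opposite directions. The lycopene cyclases LCYe and LCYb parted, LCYe at -1.34 (limma, adjusted p = 3e-07) and LCYb at 0.89 (limma, adjusted p = 1.5e-07, under the size for a call). After 12 h of SR, 0 of the 9 were called in either direction against 0 h in limma's test (4 higher and 1 lower at an unadjusted p under 0.05), with VDE at -0.15 and ZEP at -0.49. With 4.99% of all genes called higher and 8.42% lower, a count of 0 in a list of 9 does not stand out.

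The photosystem subunits form the complexes to which the antenna passes its energy. Of 19 subunit genes of PSI and PSII, 18 were called lower at SS-6 h, 18 at SS-48 h and 1 after SR, each against 0 h, beside 21.7%, 8.04% and 8.42% of all genes. The last was PSBQ1, for an extrinsic protein of the oxygen-evolving complex of PSII, at -7.00 (SE 0.34; limma, adjusted p = 3e-10).

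Electron carriers around PSI were read beside LHC11. In algae flavodoxin can stand in for ferredoxin when iron is short, and plastocyanin, a copper protein, and cytochrome c6, a heme protein, carry the same electrons to PSI. The study picked flavodoxin, FDX2 and PETE on these samples, so their changes during SS are given without a test. The gene annotated as flavodoxin (Cz14g01090) had 7.14, 7.82 and 10.1 FPKM at 0 h. It reached 1136, 729 and 618 at SS-6 h. The SS-12 h replicates had 2469, 2479 and 2239 FPKM, and those of SS-24 h only 29.6, 37.9 and 27.2. Its log2 fold changes were 6.43 (SE 0.20) at SS-6 h, 8.01 (SE 0.20) at SS-12 h and -6.21 (SE 0.20) from SS-12 h to SS-24 h. Flavodoxin thus peaked and fell in the same intervals as LHC11, and at SS-12 h its FPKM was close to that of the ferredoxin PETF, 1.03 ± 0.10 for PETF over flavodoxin against 332 ± 61.6 at 0 h (mean ± SD, n = 3). PETF itself was not called at SS-6 h (0.25; limma, adjusted p = 0.2) or SS-12 h (-0.15; limma, adjusted p = 0.48).

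A second ferredoxin, FDX2, was high at SS-6 h only. Its FPKM went from 25.2 ± 9.57 to 2031 ± 522 (6.31, SE 0.29) and was back to 45.7 ± 9.80 at SS-12 h (mean ± SD, n = 3), a difference of -5.43 (SE 0.29) in the interval in which LHC11 was still going up.

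The plastocyanin PETE and cytochrome c6 PETJ changed places more than once. PETJ was 75.5 ± 4.51 times PETE at 0 h, and PETE was 3.97 ± 0.53 times PETJ at SS-12 h (FPKM ratios, mean ± SD, n = 3). At SS-24 h PETJ was again the higher, 2.95 ± 0.58 times PETE, at SS-48 h PETJ over PETE was 0.57 ± 0.062, and after SR it was 33.8 ± 13.5. PETE was above 0 h by 4.12 (SE 0.19) at SS-6 h and by 4.84 (SE 0.19) at SS-12 h. PETJ changed by -3.69 (SE 0.25; limma, adjusted p = 3.1e-09) and -3.36 (SE 0.25; limma, adjusted p = 2e-08). Unlike LHC11, PETE was still above 0 h by 3.24 (SE 0.19) at SS-48 h, and it was at 0.63 (SE 0.19) after SR.

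Of the 12 carrier and superoxide dismutase genes, 4 were called higher and 2 lower at SS-6 h against 0 h, beside 9.64% and 21.7% of all genes. The 4 were the picked flavodoxin, FDX2 and PETE, which are not independent evidence, and FNR, the ferredoxin-NADP reductase. Without SS-6 h replicate 1, the shallowest sample, FNR was at 0.89 and not called, and 5 genes were called lower. With all samples, the iron superoxide dismutase was above 0 h by 0.94 at SS-6 h (limma, adjusted p = 1.1e-06). The manganese form was above it by 0.51 (limma, adjusted p = 0.00042), and neither was called. After SR 0 of the 12 were called higher than at 0 h in limma's test (5 at an unadjusted p under 0.05) and 2 lower, beside 4.99% and 8.42% of all genes. The 2 were flavodoxin (-1.70) and FDX2 (-3.18). Their SR-12 h means were only 1.87 and 1.83 FPKM, where the pseudocount is a large part of the value. The log2 fold change of LHC11 was 0.96, not called, and its mean was 2.18 times its 0 h mean.

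**Figure D4:**
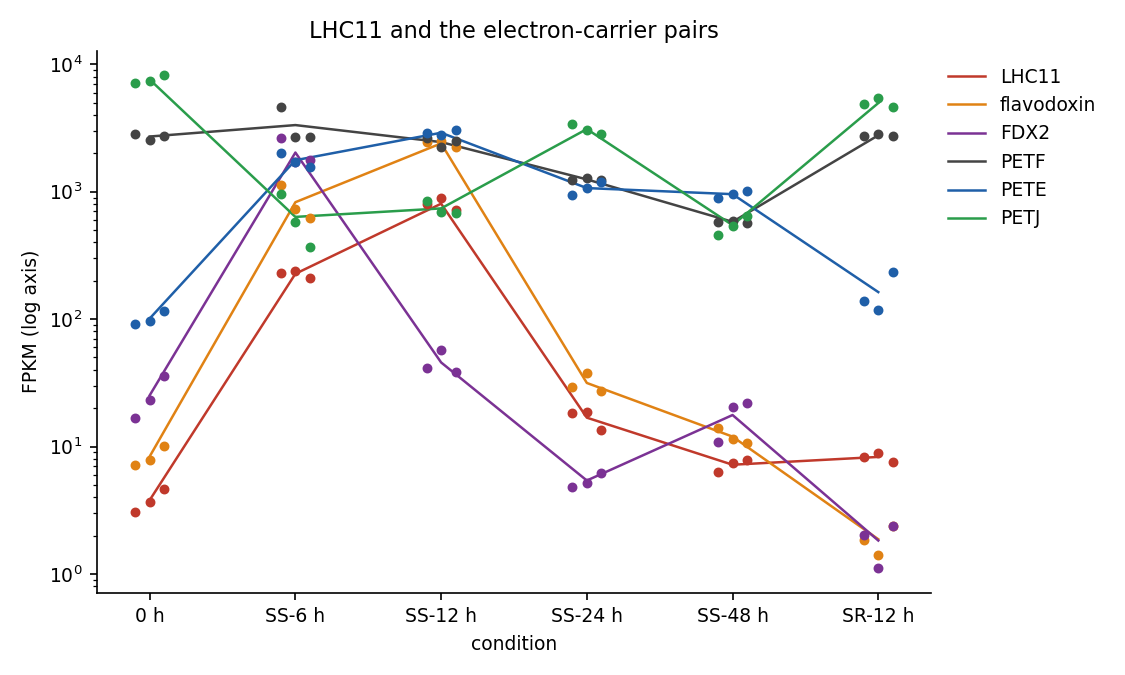
FPKM (log axis) of LHC11, flavodoxin, the ferredoxins FDX2 and PETF, plastocyanin PETE and cytochrome c6 PETJ by condition, with points for replicates and lines through condition means. Flavodoxin and LHC11 peak at SS-12 h (2239 to 2479 and 722 to 893 FPKM), FDX2 at SS-6 h, and PETE exceeds PETJ at SS-6 h, SS-12 h and SS-48 h.

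The likeness of other genes to each member was described by Pearson's r of log2(FPKM + 1) over the 18 samples, which share 6 conditions and are not independent points, among the 13777 other genes whose mean FPKM was 1 or more. The 10 genes most like LHC11 had r of 0.95 to 0.99. Only 1 of them was annotated in the sources used here, flavodoxin, with r = 0.96 at rank 5. The study picked both flavodoxin and LHC11 on these samples, so this likeness is not independent evidence. The other genes of the 10 resembled LHC11 in shape and not in size. The first, UNPLg00384, spanned 8.13-fold between its highest and lowest condition mean and the second, Cz07g18040, 3.36-fold, beside 212-fold for LHC11 and 1279-fold for flavodoxin. PETE was at r = 0.80 and FDX2 at 0.61, and the 16 other antenna genes ran from -0.30 to 0.07 (median -0.05).

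For LHCSR the 10 most alike had r of 0.87 to 0.97 and again included 1 annotated gene, an NAD(P)H dehydrogenase (quinone) (Cz12g09050) at r = 0.87. The leading genes, Cz05g08060 and Cz12g26240, spanned 3.13-fold and 4.54-fold, beside 4.70-fold for LHCSR. Here the 16 antenna genes lay between 0.48 and 0.58 (median 0.56), above the values for LHC11, with LHC4 the closest.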

How the data were processed

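Poly-A mRNA of 18 samples was sequenced as single-end reads. Per the labels and the study's methods, the authors aligned clean reads with HISAT and Bowtie2 and calculated FPKM per gene with RSEM (versions not given in the sources used here). The deposited FPKM are given to 0.01. Genes a file does not list were taken as 0. Read counts were not used. Samples were grouped by their labels.

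Values of log2(FPKM + 1) of all 18 samples and 15220 genes were fitted with limma 3.58.1 (lmFit, eBayes with a trend; R 4.3.3) and no replicate block, for 9 comparisons. P-values had the Benjamini-Hochberg adjustment across the genes, and calls needed an adjusted p up to 0.05 and a log2 change of 1 or more in size. Ratios, offsets (exact permutation test) and correlations used Python 3.11.15, numpy 2.4.6, pandas 2.3.3 and scipy 1.17.1, and figures matplotlib 3.10.9. The fit was tested on simulated data.

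Both members and all gene lists were chosen with earlier results of these data known. LHC11 at SS-12 h against SS-6 h and at SS-24 h against SS-12 h, and LHCSR at SS-48 h against 0 h, were planned as tests. They are given without one, since the choice rests on levels in them. Named were both members; LHC9 and the extremes and exceptions of the 16 antenna genes; annotated genes among the 10 most alike, with at most 2 others; and, in the other lists, genes against the majority and the carrier and xanthophyll-cycle pairs. Other ELIP, FNR and PSBQ1 values were named because a count singled them out.

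Gene names come from the study's supplementary tables. No genome was used, so positions and sequences are not given. Depth limits the precision of low values, and replicate spread served as the error. The labels do not say whether replicates came from separate cultures, so p-values measure only the spread between these samples. The alternatives tried were a pseudocount of 0.1 or 0.5, only genes whose mean FPKM reached 1, median-ratio scaling, TPM, quantile normalization, only the 2 conditions compared, a replicate block, no trend, and leaving out each sample, with the spread still pooled over all conditions.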

Additional observations from a re-analysis of the deposited data

How the results depend on the processing

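No direction of either member reversed under any of the 9 alternative settings or when any of the 18 samples was left out. LHC11 at SR-12 h against 0 h passed the size for a call with a pseudocount of 0.1 (1.12) or 0.5 (1.05), median-ratio scaling (1.08) and quantile normalization (1.28), and ranged from 0.85 to 1.09 when single samples were left out. LHCSR at SS-12 h against SS-6 h ranged from 0.99 to 1.27 over left-out samples. With a pseudocount of 0.1 LHC11 moved to 5.88 at SS-6 h and 7.71 at SS-12 h against 0 h, and its offsets from the antenna genes to 8.91 and 9.15. Median-ratio scaling gave LHC11 5.77 at SS-6 h against 0 h and 1.66 at SS-12 h against SS-6 h, and LHCSR at SR-12 h -1.69 against 0 h and 0.75 against SS-48 h, for which quantile normalization gave 0.67. LHCSR at SS-48 h against 0 h was -2.44 with median-ratio scaling and -2.53 with quantile normalization. Median-ratio scaling moves the median of genes whose mean FPKM is 1 or more from -0.20 to -0.01 at SS-6 h and from 0.22 to 0.01 at SS-48 h against 0 h, and for SR-12 h against SS-48 h from -0.36 to -0.02. With the median of the 16 genes as reference, the offset differences were 8.25 and 8.47 for LHC11 at SS-6 h and SS-12 h, and for LHCSR 3.34 by the end of SS and -2.28 after SR. Quantile normalization left 10 of the 16 antenna genes called lower at SS-24 h. Carrier genes called lower at SS-6 h numbered 4 with TPM, 5 with quantile normalization and 2 to 5 over left-out samples. Of the 10 genes most like LHC11, 3 were shared with Spearman's correlation, 4 with condition means and 5 with median-ratio scaling, and of those most like LHCSR 4, 6 and 6. The cause of these shifts was not tested, beyond the added constant itself for the pseudocount.

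The replicate numbers of the labels do not pair the samples: deviations of samples with the same number correlated at -0.00105 on average, from -0.57 to 0.35, and 8 of 18 samples were closest to their own number. With a replicate block LHC11 at SS-24 h against 0 h was 1.90 (limma, adjusted p = 1.5e-07) and LHCSR -1.79 (limma, adjusted p = 5.7e-07), and the block changed no call of either member. These comparisons share the 0 h samples with the choice of both genes.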

Other observations

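LHC11 (Cz14g01080) and the flavodoxin gene (Cz14g01090) carry consecutive numbers in the gene identifiers, which was seen after their values were known. No genome was used, so whether they neighbour each other on the chromosome was not tested. The ratio of flavodoxin to LHC11 FPKM was 2.21 ± 0.12 before SS and 3.63 ± 1.09, 2.99 ± 0.18, 1.88 ± 0.24 and 1.69 ± 0.44 after 6, 12, 24 and 48 h of SS (mean ± SD, n = 3), while the condition means of LHC11 spanned 212-fold. At SR-12 h the ratio was 0.23 ± 0.077, with every replicate below those of the other conditions. Flavodoxin was then at only 1.84, 1.42 and 2.36 FPKM, so this ratio rests on low values. The gene with the preceding number, Cz14g01070, ranged between condition means of 285 and 499 FPKM and did not share the course. PETE (Cz01g35130) and PETJ (Cz01g35120), which changed in opposite directions, are a further pair with consecutive numbers.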
